A study of Mus musculus with 18 samples.

Results

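The genes described here belong to 7 solute carrier families whose members carry amino acids and related small molecules across membranes: SLC1, SLC3, SLC6, SLC7, SLC36, SLC38 and SLC43. They were taken by gene symbol alone, with Slc7a2 and Slc7a11 left out, which gave 57 of the 24411 symbols in the table. The rule itself uses no measured value. Messenger RNA was sequenced from RAW264.7 cells, a mouse line of macrophage-like cells grown in DMEM with serum and antibiotics. Control cells carried a control guide RNA (genotype WT), and knockout cells belonged to a line made deficient in Kdm7a, a histone demethylase gene, with CRISPR/Cas9 and a Kdm7a guide RNA. Both were left without stimulation (M0), given mouse IFN-γ at 2 ng/ml with LPS at 0.1 µg/ml (M1), or given human TGF-β1 at 2 ng/ml together with mouse IL-13, IL-10 and IL-4 at 20 ng/ml (M2), each for 48 h. Each of the 6 groups had 3 libraries, 18 in all. The labels name 1 line of each genotype, so whatever else differs between those lines cannot be told apart from the loss of Kdm7a. Nothing says whether the 3 libraries of a group came from separate cultures, and the p-values measure the spread between libraries, part or all of which may be technical.

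Amino acid carriers fall into groups that work together. Exchangers such as the SLC7 light chains LAT1 and LAT2 bring in large neutral amino acids only when joined to the heavy chain CD98, encoded by Slc3a2, and they export another amino acid, often glutamine, in return. Glutamine itself enters through the exchanger ASCT2 (Slc1a5) and the sodium-driven SLC38 carriers, and cationic amino acids such as arginine, the substrate of nitric oxide synthase and arginase in macrophages, enter through the CAT carriers of SLC7. SLC36 and several SLC38 proteins sit on lysosomes and pass amino acid levels on to the growth kinase mTORC1. The SLC6 family carries neurotransmitters and osmolytes with sodium and chloride.

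Values are TPM, a transcript's share of the library scaled for its length, so levels of different genes can be set side by side. Tests used limma on log2(TPM + 1) across the 11548 genes that reached 1 TPM in at least 3 libraries, and a gene was called when its p-value, adjusted over all of them, was below 0.05. Changes on the log2(TPM + 1) scale are given with their standard error, understate the change of low genes, and are set beside the ratio of mean TPM. Kdm7a, the targeted gene, did not overlap between genotypes in any condition, with means of 3.37, 7.49 and 6.80 TPM in knockout cells (M0, M1, M2) against 11.1, 29.7 and 23.3 in control cells. Under M1 the median gene moved by -0.38 in control cells on the deposited scale. After scaling with trimmed-mean (TMM) or median-ratio factors it moved by 0.08 and -0.03. Changes under M1 are therefore given with those scalings wherever a call differs. Fold changes of M1 against M0 or M2 use the deposited scale, where falls are larger and rises smaller than with either factor set. Among all called genes, TMM factors moved the share that was higher by over 10 percentage points in all comparisons but M2 in control cells and the knockout without stimulation: from 36.1% to 53.2% for M1 in control cells, for example, from 33.6% to 48.2% for the knockout under M1 and from 41% to 55% for the knockout under M2. Replicate 1 of the knockout M2 group stood apart: it was the lowest of its group in 19 of the 26 tested members and in 53.9% of all tested genes. Replicate 1 of the control M2 group was the highest of its group in 19 of the 26. Of 10 macrophage markers, 9 reached 1 TPM in at least 3 libraries and Mertk did not, and their summed level was between 4037 and 6257 TPM. Of the fibroblast, epithelial and T cell markers, 0 of 15 did so, Ms4a1 was listed at 0 throughout, and the summed B cell markers, of which Cd79a alone passed the filter, were at 13.1 to 21.2 TPM in M2 libraries and at most 3.08 in the others. S100a8, a gene of neutrophils and stimulated macrophages, reached 62.0 TPM in M1 libraries while S100a9 was listed at 0. The part of these markers in the results was not tested.

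Of the 57 members, 26 passed the filter on low values and were tested, and 17 of these were at 10 TPM or more in all 18 libraries. Of the 31 others, 15 were listed at 0 in every library and the highest value among the other 16 was 0.37 TPM, for Slc7a3. The tested members were 2 of 7 in SLC1, 1 of 2 in SLC3, 6 of 17 in SLC6, 7 of 13 in SLC7, 2 of 4 in SLC36, 6 of 11 in SLC38 and 2 of 3 in SLC43. Among them, Slc6a4 reached 1 TPM only in M1 libraries and Slc7a14 only in M2 libraries. Both passed the filter only through the groups where they were high. Their p-values for a rise there, and their place in the counts of rises, are therefore not separate support. The members below the filter included the glutamate carriers Slc1a1, Slc1a2, Slc1a3, Slc1a6 and Slc1a7, the heavy chain Slc3a1 and the leucine carrier Slc43a1. In SLC6 they included Slc6a2, Slc6a3, Slc6a5, Slc6a7, Slc6a11, Slc6a14, Slc6a15, Slc6a17, Slc6a18 and Slc6a19, many of them neurotransmitter carriers of neurons or amino acid carriers of epithelia. The rest were Slc7a3, Slc7a9, Slc7a10, Slc7a12, Slc7a13, Slc7a15, Slc36a2, Slc36a3, Slc38a3, Slc38a4, Slc38a5, Slc38a8 and Slc38a11. Slc6a9, Slc7a7 and Slc38a6 share bases with a protein-coding neighbour (Ccdc24, Oxa1l and Trmt5, by 51, 228 and 237 bases of their RefSeq spans). Whether reads were counted by strand is not given in the sources used here, so part of those reads may belong to the neighbour.

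In unstimulated control cells 4 members stood at about the same high level: the heavy chain Slc3a2 at 319 ± 6.85 TPM (SD, n = 3, as for all means here), Slc1a5 at 315 ± 7.58, the light chain Slc7a5 at 315 ± 11.3 and Slc38a2 at 304 ± 8.31. The libraries of Slc3a2, Slc1a5 and Slc7a5 overlapped one another, as did those of Slc38a2 with Slc1a5 and Slc7a5, so the order of these neighbours is not resolved. The next level was held by the taurine carrier Slc6a6 at 167 ± 3.35 TPM, the arginine carrier Slc7a1 at 146 ± 2.53, the betaine carrier Slc6a12 at 119 ± 12.5 and the small neutral amino acid carrier Slc38a1 at 101 ± 1.91. Summed over the members, the total was 2226 ± 35.6 TPM, of which Slc3a2 made up 14.3%, Slc7a5 14.2%, Slc1a5 14.2% and Slc38a2 13.7%.

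The upstream sequence of 4 members is shown because they stand for the patterns described below: Slc1a4 and Slc38a2 fell with M1, Slc7a8 rose, and Slc3a2 was not called on the deposited scale. Each window runs from 250 bases before the RefSeq start to 10 bases after it (RefSeq, GRCm38.p6), 5′ to 3′ on the gene's strand, and all 4 lie on the minus strand. They span chr11:20332704-20332963 (Slc1a4), chr15:96699719-96699978 (Slc38a2), chr14:54781877-54782136 (Slc7a8) and chr19:8713888-8714147 (Slc3a2). The Slc3a2 window belongs to a start inside the gene's RefSeq span and not to the start at the span's upstream end. Capitals mark a match to TGATGNAA, the C/EBP-ATF response element through which ATF4 acts on genes of the amino acid response, on either strand.
Slc1a4: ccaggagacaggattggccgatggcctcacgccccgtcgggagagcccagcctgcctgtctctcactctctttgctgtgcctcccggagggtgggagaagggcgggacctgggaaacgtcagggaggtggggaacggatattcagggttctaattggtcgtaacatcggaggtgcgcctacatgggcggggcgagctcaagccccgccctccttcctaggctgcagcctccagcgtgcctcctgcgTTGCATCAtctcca
Slc38a2: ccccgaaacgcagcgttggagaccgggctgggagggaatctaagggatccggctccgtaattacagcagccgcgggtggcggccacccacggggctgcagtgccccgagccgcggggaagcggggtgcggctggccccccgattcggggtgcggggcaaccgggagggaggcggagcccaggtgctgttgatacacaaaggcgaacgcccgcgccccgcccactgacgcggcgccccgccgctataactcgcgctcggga
Slc7a8: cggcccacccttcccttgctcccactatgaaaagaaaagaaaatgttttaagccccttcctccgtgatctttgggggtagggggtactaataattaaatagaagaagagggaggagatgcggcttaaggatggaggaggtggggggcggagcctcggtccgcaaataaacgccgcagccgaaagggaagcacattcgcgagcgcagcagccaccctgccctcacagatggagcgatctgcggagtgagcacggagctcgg
Slc3a2: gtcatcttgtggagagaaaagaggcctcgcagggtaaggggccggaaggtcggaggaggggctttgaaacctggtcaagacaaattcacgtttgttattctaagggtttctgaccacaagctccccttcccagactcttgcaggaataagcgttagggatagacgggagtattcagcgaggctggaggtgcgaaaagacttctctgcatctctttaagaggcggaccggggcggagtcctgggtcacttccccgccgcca
The single match, in Slc1a4, is read on the opposite strand and spans the start itself. Windows were at hand for 19 of the 26 tested members, 34 in all, and 5 motifs were searched on both strands. TGATGNAA was in the windows of 2 members, Slc1a4 and Slc7a7, and in 3.59% of all 32851 windows of the same length. The gamma-activated site TTCNNNGAA was in those of Slc7a1 and Slc38a9 (7.33% of all windows) and the STAT6-type site, TTC and GAA with 4 bases between them, in that of Slc43a2 (6.09%). The E-box CACGTG was in those of Slc7a14, Slc38a7 and Slc36a1 (6.34%), the interferon-stimulated response element, GAAA repeated with 2 bases between, in none (3.07%), and no member's window held more than 1 of the 5 motifs. A match describes letters only and is not a binding site.

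Under M1 the RNA of the neutral amino acid exchangers Slc1a4, Slc1a5 and Slc7a5 fell by 8-fold or more on the deposited scale. That of Slc7a8, Slc6a8 and Slc6a4 rose. In control cells 22 of the 26 tested members were called, 8 higher and 14 lower, a share of 84.6% beside 89.1% of all tested genes (32.2% higher and 56.9% lower). The share of members called was no higher than the background. The median change of the tested members was -0.41 beside -0.38 over all genes, and 9 fell and 3 rose by at least 1 on the log2(TPM + 1) scale. How many of all tested genes moved that far was not counted, so the 9 and 3 have no background. With TMM factors the split was 12 higher and 12 lower, and with median-ratio factors 12 and 13. In bulk RNA fewer cells with a transcript and less of it per cell cannot be told apart, here or below.

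**Figure D1:**
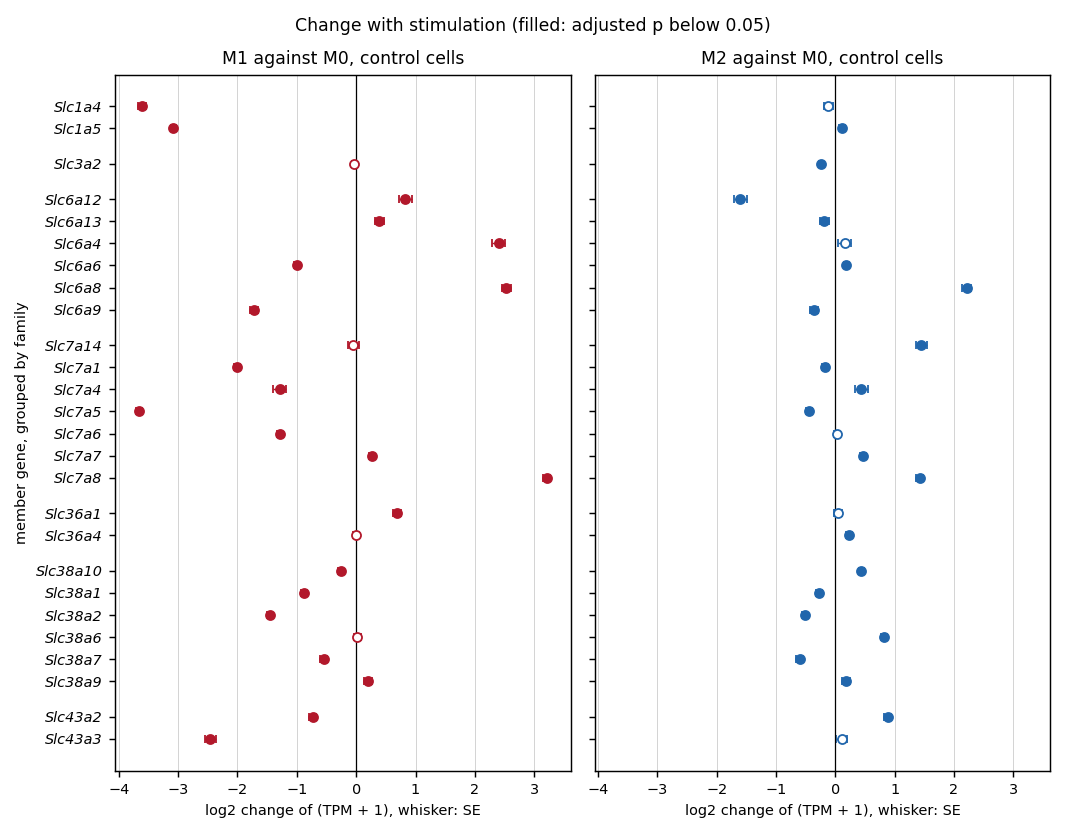
Change of the 26 tested members with M1 (left) and M2 (right) against M0 in control cells, in log2(TPM + 1), grouped by family. Points are the fitted change, whiskers its standard error, and filled points passed an adjusted p below 0.05; the M1 changes run from -3.66 (Slc7a5) to 3.21 (Slc7a8), the M2 changes from -1.60 (Slc6a12) to 2.21 (Slc6a8), and the 2 panels have the same axis.

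Both tested neutral amino acid exchangers of SLC1 fell. Slc1a4 (ASCT1, chr11:20302180-20332713), which carries alanine, serine and cysteine, was at 48.3, 47.3 and 48.9 TPM in the unstimulated libraries and at 3.57, 2.70 and 2.82 in the M1 libraries. Every M1 library was far below every unstimulated one, a mean 15.9-fold lower (log2 change -3.61 ± 0.0739, limma adjusted p = 3.10e-20). Slc1a5 (ASCT2, chr7:16781334-16798274), the main glutamine exchanger of many dividing cells, went from 324, 314 and 309 to 35.5, 36.6 and 37.2 TPM. Its groups were as widely separated, with a mean 8.65-fold lower (log2 change -3.08 ± 0.0444, limma adjusted p = 1.24e-22). The summed level of SLC1 fell from 364 ± 7.47 to 39.5 ± 0.495 TPM. The ratio of M1 to M0 was 0.109 on the deposited scale, 0.159 with TMM and 0.144 with median-ratio factors.

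Of the light chains that join CD98, Slc7a5 fell and Slc7a8 rose, while the heavy chain was not called on the deposited scale. Slc7a5 (LAT1, chr8:121881146-121907686), which imports leucine and other large neutral amino acids, was at 309.8, 328 and 308 TPM without stimulation and at 22.5, 24.2 and 25.4 under M1. This was the largest fall among the members on the log2 scale, a mean 13.1-fold lower (log2 change -3.66 ± 0.0484, limma adjusted p = 3.36e-23). Slc7a8 (LAT2, chr14:54722215-54781886), a light chain with overlapping substrates, moved the other way, from 7.62, 9.11 and 8.02 to 80.7, 89.7 and 82.6 TPM. No library of one group reached the other, and the mean was 10.2-fold higher (log2 change 3.21 ± 0.0647, limma adjusted p = 2.55e-20), the largest rise among the members on the log2(TPM + 1) scale, though not by the ratio of means (33.2 for Slc6a4). The heavy chain Slc3a2 (chr19:8706882-8723369) was at 324, 320.2 and 311 TPM without stimulation and at 311, 312 and 308 under M1. Its groups overlapped and it was not called (log2 change -0.04 ± 0.0333, limma adjusted p = 0.309), but with TMM and median-ratio factors it was called higher, by 0.52 and 0.37.

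Within each library the ratio of Slc7a8 to Slc7a5 was 0.0246, 0.0278 and 0.0261 without stimulation and 3.59, 3.70 and 3.26 under M1. The light chain with less RNA thus became the one with more. The ratio of the summed light chains Slc7a5, Slc7a6, Slc7a7 and Slc7a8 to Slc3a2 was 1.22, 1.28 and 1.25 without stimulation and 0.495, 0.52 and 0.507 under M1. Slc7a11, the cystine light chain that was left out of the members, was at 17.3 ± 0.706 and 99.5 ± 2.68 TPM, and with it in the sum the mean ratios were 1.31 and 0.828. These ratios are free of the scaling of the libraries, were chosen after their values were seen, and are given with no test.

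**Figure D2:**
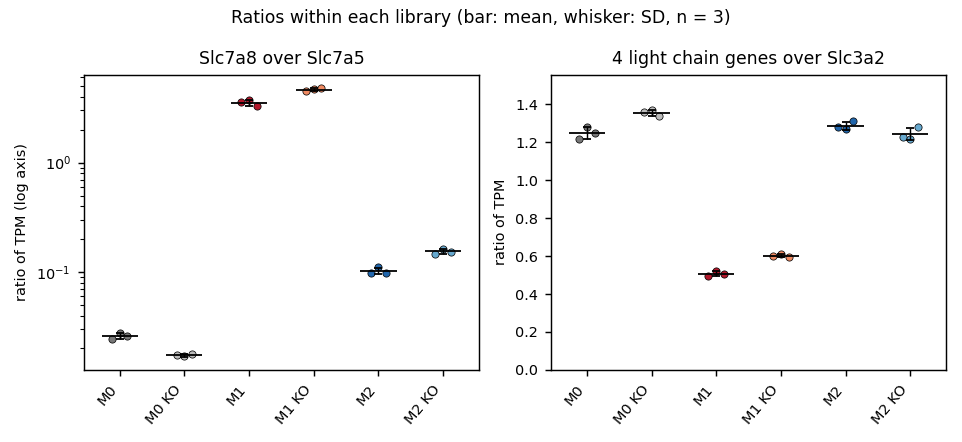
Ratio of Slc7a8 to Slc7a5 (left, log axis) and of 4 light chain genes (Slc7a5, Slc7a6, Slc7a7, Slc7a8) to the heavy chain gene Slc3a2 (right, linear axis) in each of the 18 libraries, with the mean and SD of each group (n = 3); KO marks the knockout. The left ratio is below 1 in every M0 and M2 library and above 3 in every M1 library, and the right ratio is lowest under M1, at 0.508 in control and 0.602 in knockout cells.

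The other SLC7 members split as well. Slc7a1 (CAT1, chr5:148327410-148399904), the general carrier of arginine and lysine, fell from 146, 148 and 143 to 35.1, 35.6 and 35.9 TPM. The M1 libraries were tightly grouped and 4.11-fold lower (log2 change -2.01 ± 0.0538, limma adjusted p = 2.66e-18). Slc7a6, a y+LAT light chain that exchanges cationic for neutral amino acids, fell by 1.29 on the log2 scale (limma adjusted p = 5.30e-16), from 52.4 ± 2.38 to 20.8 ± 1.48 TPM. Slc7a7, the other y+LAT light chain, rose from 23.7 ± 1.05 to 28.5 ± 0.793 TPM (log2 change 0.26 ± 0.0481, limma adjusted p = 5.19e-05). Slc7a4, a relative of the CAT carriers with no settled substrate, fell from 2.48 ± 0.377 to 0.417 ± 0.0416 TPM (log2 change -1.29 ± 0.106, limma adjusted p = 4.12e-10). Slc7a14, a lysosomal CAT relative, was listed at no more than 0.06 TPM in the libraries compared and was not called.

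In SLC6, 4 of 6 tested members rose and 2 fell, and the summed level was 356 ± 15.4 TPM without stimulation and 367 ± 13.2 under M1. That near-level sum rests on the scaling, since the ratio of M1 to M0 was 1.03 on the deposited scale, 1.51 with TMM and 1.37 with median-ratio factors. Slc6a12 (chr6:121342574-121365773), which takes up the osmolyte betaine and GABA, rose from 131, 106 and 119 to 227, 197 and 210.2 TPM. All M1 libraries were above all unstimulated ones (log2 change 0.83 ± 0.111, limma adjusted p = 3.90e-06), and its share of all member RNA went from 5.34% to 16.9%. Its neighbour on chromosome 6, the GABA and taurine carrier Slc6a13, rose by less, from 27.7 ± 1.66 to 36.5 ± 0.504 TPM (log2 change 0.39 ± 0.0745, limma adjusted p = 7.04e-05). The creatine carrier Slc6a8 (chrX:73673133-73682502) was at 2.13, 2.76 and 2.44 TPM without stimulation and at 18.3, 19.8 and 18.6 under M1, a mean 7.73-fold higher (log2 change 2.53 ± 0.0722, limma adjusted p = 7.37e-18). The serotonin carrier Slc6a4 (chr11:76998597-77032343) was near 0 without stimulation, at 0.13, 0.19 and 0.14 TPM, and at 4.98, 4.85 and 5.45 under M1 (log2 change 2.40 ± 0.109, limma adjusted p = 1.86e-14). It passed the filter only through M1 libraries, so this p-value is not separate support.

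The taurine carrier Slc6a6 and the glycine carrier Slc6a9 (GlyT1) were the SLC6 members that fell. Slc6a6 was at 169, 168 and 163 TPM without stimulation and at 81.0, 84.3 and 83.2 under M1, a mean 2.01-fold lower (limma adjusted p = 6.24e-15). Slc6a9 went from 40.4 ± 1.67 to 11.6 ± 0.456 TPM (log2 change -1.72 ± 0.064, limma adjusted p = 6.55e-16). Neither overlapped between groups.

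The sodium-driven SLC38 carriers of the cell surface fell, and the lysosomal and less known members moved by smaller steps. Slc38a2 (SNAT2, chr15:96687392-96699728), whose RNA is known to rise when amino acids run short, was at 307, 295 and 311 TPM without stimulation and at 112, 109 and 109 under M1. No libraries overlapped, and the mean was 2.76-fold lower (log2 change -1.46 ± 0.0492, limma adjusted p = 1.27e-16). Slc38a1 (SNAT1) fell from 101 ± 1.91 to 54.6 ± 2.06 TPM (log2 change -0.88 ± 0.0509, limma adjusted p = 1.32e-12). Slc38a7, a lysosomal glutamine exporter, fell by 0.55 on the log2 scale (limma adjusted p = 1.17e-08), but with TMM factors it was at -0.01 and not called. Slc38a10 fell by 0.26, and rose by 0.28 and 0.14 with TMM and median-ratio factors, so its direction is not settled. Slc38a6 was not called (0.02) and was called higher under both scalings. Slc38a9, the lysosomal arginine sensor of mTORC1, was called higher by 0.20 (limma adjusted p = 0.0112), from 4.52 ± 0.116 to 5.34 ± 0.172 TPM.

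In SLC36 the lysosomal proton-coupled carrier Slc36a1 (PAT1) rose from 12.4, 11.1 and 10.7 to 18.6, 19.4 and 18.9 TPM, with no overlap (log2 change 0.69 ± 0.0676, limma adjusted p = 7.03e-09). Slc36a4 was level at 25.3 ± 0.48 and 25.1 ± 0.87 TPM and not called, though called higher under both scalings. In SLC43, Slc43a3 (chr2:84936545-84958509), a carrier of purine bases rather than amino acids, fell from 27.7, 32.9 and 31.6 to 3.99, 5.25 and 5.11 TPM. Its M1 libraries were all below 6 TPM, a mean 6.42-fold lower (log2 change -2.46 ± 0.094, limma adjusted p = 1.72e-15). Slc43a2 (LAT4), a facilitated carrier of leucine and phenylalanine, fell from 25.9 ± 0.288 to 15.2 ± 0.874 TPM (log2 change -0.73 ± 0.0577, limma adjusted p = 2.17e-10).

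These changes reordered the members. In control M1 libraries the highest were Slc3a2 at 311 ± 1.97 TPM, Slc6a12 at 211 ± 15.2, Slc38a2 at 109.9 ± 2.06, Slc7a8 at 84.3 ± 4.71 and Slc6a6 at 82.8 ± 1.68, with the last pair overlapping. Slc3a2 then made up 24.8% of all member RNA, Slc6a12 16.9% and Slc7a8 6.73%, while Slc1a5 was at 2.91% and Slc7a5 at 1.92%. The summed level of SLC7 went from 548 ± 12.8 to 194 ± 4.65 TPM and that of SLC38 from 546 ± 9.49 to 279 ± 0.325. That of all members went from 2226 ± 35.6 to 1253 ± 7.87. The size of these falls rests on the scaling. For all members the ratio of M1 to M0 was 0.563 on the deposited scale, 0.826 with TMM and 0.747 with median-ratio factors. For SLC38 it was 0.51, 0.749 and 0.678, and for SLC7 0.353, 0.519 and 0.469.

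**Figure D3:**
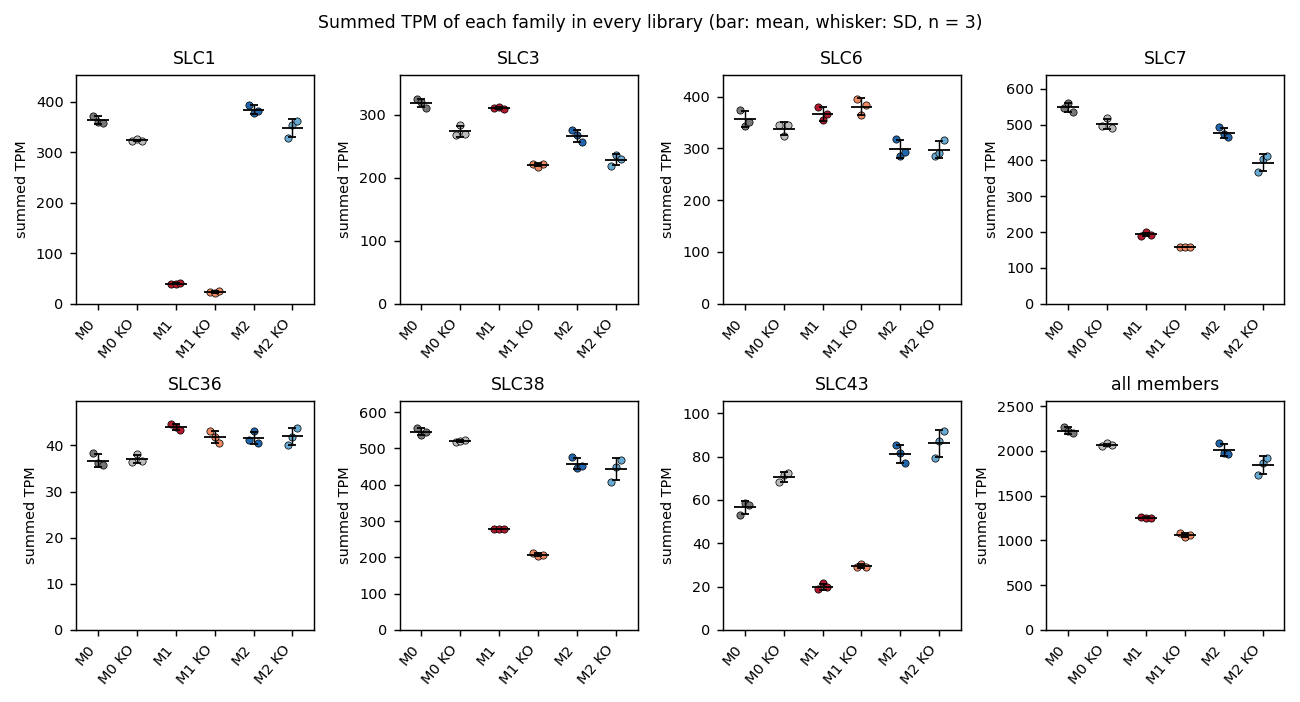
Summed TPM of each of the 7 families and of all 57 members in every library, by group, with the mean and SD (n = 3); every axis starts at 0 and KO marks the knockout. The SLC1 sum falls from 364 to 39.5 TPM with M1 in control cells. The SLC6 sum is 356 and 367 TPM (a ratio of 1.03 on this scale and 1.51 with TMM factors). The sum of all members falls from 2226 to 1253 TPM (a ratio of 0.563 on this scale and 0.826 with TMM factors).

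In knockout cells M1 called 23 of 26 tested members, 7 higher and 16 lower (88.5% beside 90.3% of all tested genes, of which 32% higher and 58.4% lower; 12 higher and 12 lower with TMM factors, 11 and 12 with median-ratio factors). The largest falls were again Slc7a5, from 284, 312 and 282 to 16.6, 16.1 and 15.5 TPM (log2 change -4.10 ± 0.0484, limma adjusted p = 5.37e-24), and Slc1a4, from 41.1, 44.7 and 42.7 to 1.71, 1.75 and 1.72 TPM (log2 change -4.01 ± 0.0739, limma adjusted p = 4.96e-21). Slc1a5 fell to 21.8 ± 1.74 TPM (log2 change -3.63 ± 0.0444, limma adjusted p = 9.19e-24), Slc43a3 to 2.78 ± 0.49 (log2 change -3.13 ± 0.094, limma adjusted p = 2.78e-17) and Slc7a1 to 24.5 ± 0.635 (log2 change -2.36 ± 0.0538, limma adjusted p = 1.63e-19). These are the exchangers, the arginine carrier and the purine base carrier that led the falls in control cells. Slc7a8 rose to 74.3, 75.3 and 74.2 TPM (log2 change 3.64 ± 0.0647, limma adjusted p = 2.79e-21) and Slc6a8 to 9.44 ± 0.745 (log2 change 2.14 ± 0.0722, limma adjusted p = 1.18e-16). Slc6a4 rose to 8.59, 7.70 and 8.20 TPM (log2 change 3.04 ± 0.109, limma adjusted p = 2.98e-16). It passed the filter only through M1 libraries, so that p-value is not separate support. Slc6a12 rose to 225 ± 13.9 TPM (log2 change 1.05 ± 0.111, limma adjusted p = 2.29e-07) and Slc36a1 to 16.1 ± 0.429 (log2 change 0.53 ± 0.0676, limma adjusted p = 3.73e-07). Slc3a2, Slc38a10, Slc38a6 and Slc43a2 were called lower on the deposited scale only: with TMM factors their changes were 0.31, 0.33, 0.19 and 0.08.

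M2 stimulation changed the members by smaller steps: the creatine carrier Slc6a8 and the light chain Slc7a8 rose, Slc7a14 appeared from near 0, and the betaine carrier Slc6a12 fell most. In control cells 21 of 26 tested members were called, 12 higher and 9 lower, a share of 80.8% beside 65.4% of all tested genes (28.4% higher and 37% lower). The median change of the tested members was 0.11 beside -0.05 over all genes, and 3 rose and 1 fell by at least 1 on the log2(TPM + 1) scale. The share of all tested genes that moved that far was not counted here either. Without replicate 1 of the control M2 group 18 were called. Slc1a5 was at 346, 334 and 341 TPM under M2, close to its unstimulated level (log2 change 0.11 ± 0.0444, limma adjusted p = 0.0369), a call lost when control M0 replicate 2 or 3 or control M2 replicate 1 or 3 was left out, and without the filter or the trend (adjusted p up to 0.112). Slc1a4 was at 47.8, 43.5 and 41.5 TPM, with libraries overlapping those without stimulation, and was not called (log2 change -0.12 ± 0.0739, limma adjusted p = 0.155).

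The creatine carrier Slc6a8 led the rises on the log2(TPM + 1) scale, to 14.7, 15.3 and 14.8 TPM from 2.13, 2.76 and 2.44, a mean 6.11-fold higher (log2 change 2.21 ± 0.0722, limma adjusted p = 8.04e-16). Every M2 library was more than 14 TPM and every unstimulated one below 3. Slc7a8 rose to 23.7, 25.1 and 22.5 TPM (log2 change 1.42 ± 0.0647, limma adjusted p = 1.75e-13), again with no overlap. Slc7a14 (chr3:31202854-31310567), near 0 elsewhere, was at 1.95, 1.60 and 1.96 TPM in control M2 libraries and at 1.82, 2.37 and 2.13 in knockout M2 libraries. Its highest value in any other library was 0.06 TPM (log2 change 1.45 ± 0.0899, limma adjusted p = 2.69e-11 in control cells). Slc7a14 passed the filter only through these M2 libraries, so that p-value is not separate support. Slc43a2 rose to 49.5, 49.5 and 45.9 TPM (log2 change 0.88 ± 0.0577, limma adjusted p = 6.75e-11) and Slc38a6 to 29.7, 27.7 and 28.5 (log2 change 0.82 ± 0.0551, limma adjusted p = 9.11e-11). Both were separated from their unstimulated libraries.

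Smaller rises were called for Slc7a7 (0.47), Slc38a10 (0.44), Slc7a4 (0.44), Slc36a4 (0.23), Slc6a6 (0.18) and Slc38a9 (0.18). The Slc38a9 call was lost without any one of 5 control M0 or M2 libraries (replicates 1 and 2 of M0, all 3 of M2; adjusted p up to 0.0662). The betaine carrier Slc6a12 fell most, from 131, 106 and 119 to 45.4, 33.8 and 37.1 TPM. It was 3.07-fold lower, with every M2 library below every unstimulated one (log2 change -1.60 ± 0.111, limma adjusted p = 6.12e-09), and so moved against its rise under M1. Slc38a7 fell to 32.2 ± 2.39 TPM (log2 change -0.60 ± 0.0557, limma adjusted p = 1.27e-08), Slc38a2 to 212 ± 9.43 (log2 change -0.52 ± 0.0492, limma adjusted p = 1.67e-08) and Slc7a5 to 233 ± 6.88 (log2 change -0.44 ± 0.0484, limma adjusted p = 1.54e-07). Slc6a9 fell to 31.3 ± 3.31 TPM (log2 change -0.36 ± 0.064, limma adjusted p = 5.40e-05). Slc38a1 (-0.28), Slc3a2 (-0.25), Slc6a13 (-0.19) and Slc7a1 (-0.18) were also called lower, the Slc6a13 call being lost without control M0 replicate 1 or 3 or control M2 replicate 1 or 2, with TMM factors and without the filter (adjusted p up to 0.15). Slc7a6, Slc36a1, Slc43a3 and Slc6a4 were not called.

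In knockout cells M2 called 22 of 26 tested members, 11 higher and 11 lower (84.6% beside 72.9% of all tested genes, of which 29.6% higher and 43.2% lower), and 21 without the replicate that stood apart. On the log2(TPM + 1) scale the rises were led by Slc6a8, to 11, 10.8 and 10.1 TPM (log2 change 2.29 ± 0.0722, limma adjusted p = 3.27e-16), and Slc7a8, to 24.9, 29.2 and 28.1 (log2 change 2.22 ± 0.0647, limma adjusted p = 9.17e-17). Slc7a14 rose by 1.62 (limma adjusted p = 3.33e-12), a size that rests on the pseudocount since unstimulated knockout libraries were at 0.01, 0.01 and 0 TPM. It passed the filter only through M2 libraries, so that p-value is not separate support. Slc38a6 rose to 29.5 ± 1.76 TPM (log2 change 0.94 ± 0.0551, limma adjusted p = 8.10e-12) and Slc7a7 to 31.8 ± 0.914 (log2 change 0.70 ± 0.0481, limma adjusted p = 1.00e-10). The falls were led by Slc6a12, to 41.8, 33.4 and 40.8 TPM (log2 change -1.46 ± 0.111, limma adjusted p = 1.27e-08), and Slc7a5, to 169, 181 and 184 (log2 change -0.72 ± 0.0484, limma adjusted p = 7.38e-11). Slc6a9 fell to 22.8 ± 1.70 TPM (log2 change -0.64 ± 0.064, limma adjusted p = 2.34e-08), Slc38a2 to 199 ± 17.1 (log2 change -0.57 ± 0.0492, limma adjusted p = 3.26e-09) and Slc38a7 to 28.1 ± 1.98 (log2 change -0.54 ± 0.0557, limma adjusted p = 3.70e-08).

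Set directly against each other in control cells, M1 and M2 differed in 24 of 26 tested members, 7 higher and 17 lower under M1 (92.3% beside 89.4% of all tested genes, of which 30.3% higher and 59% lower). With TMM or median-ratio factors the split was 11 higher and 15 lower. On the log2(TPM + 1) scale the largest differences were those of the exchangers: Slc1a4 was 14.6-fold lower under M1 (log2 change -3.49 ± 0.0739, limma adjusted p = 6.11e-20), Slc7a5 9.68-fold (log2 change -3.22 ± 0.0484, limma adjusted p = 2.86e-22) and Slc1a5 9.33-fold (log2 change -3.19 ± 0.0444, limma adjusted p = 8.90e-23). Slc43a3 was 6.92-fold lower (log2 change -2.56 ± 0.094, limma adjusted p = 9.27e-16) and Slc7a1 3.63-fold (log2 change -1.83 ± 0.0538, limma adjusted p = 1.39e-17). Slc6a12 was 5.45-fold higher under M1 than under M2 (log2 change 2.43 ± 0.111, limma adjusted p = 6.35e-12). Slc6a4 was higher by 2.24 on the log2 scale (limma adjusted p = 6.26e-14). It passed the filter only through M1 libraries, so that p-value is not separate support. Slc7a8 was 3.55-fold higher (log2 change 1.78 ± 0.0647, limma adjusted p = 4.67e-16). Slc36a1 and Slc6a13 were higher by 0.64 and 0.58 on the log2 scale (limma adjusted p = 2.23e-08 and 4.34e-07). The y+LAT light chain Slc7a7 and Slc36a4 were called lower under M1 (-0.22 and -0.24) but higher with TMM factors (0.26 and 0.23).

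**Figure D4:**
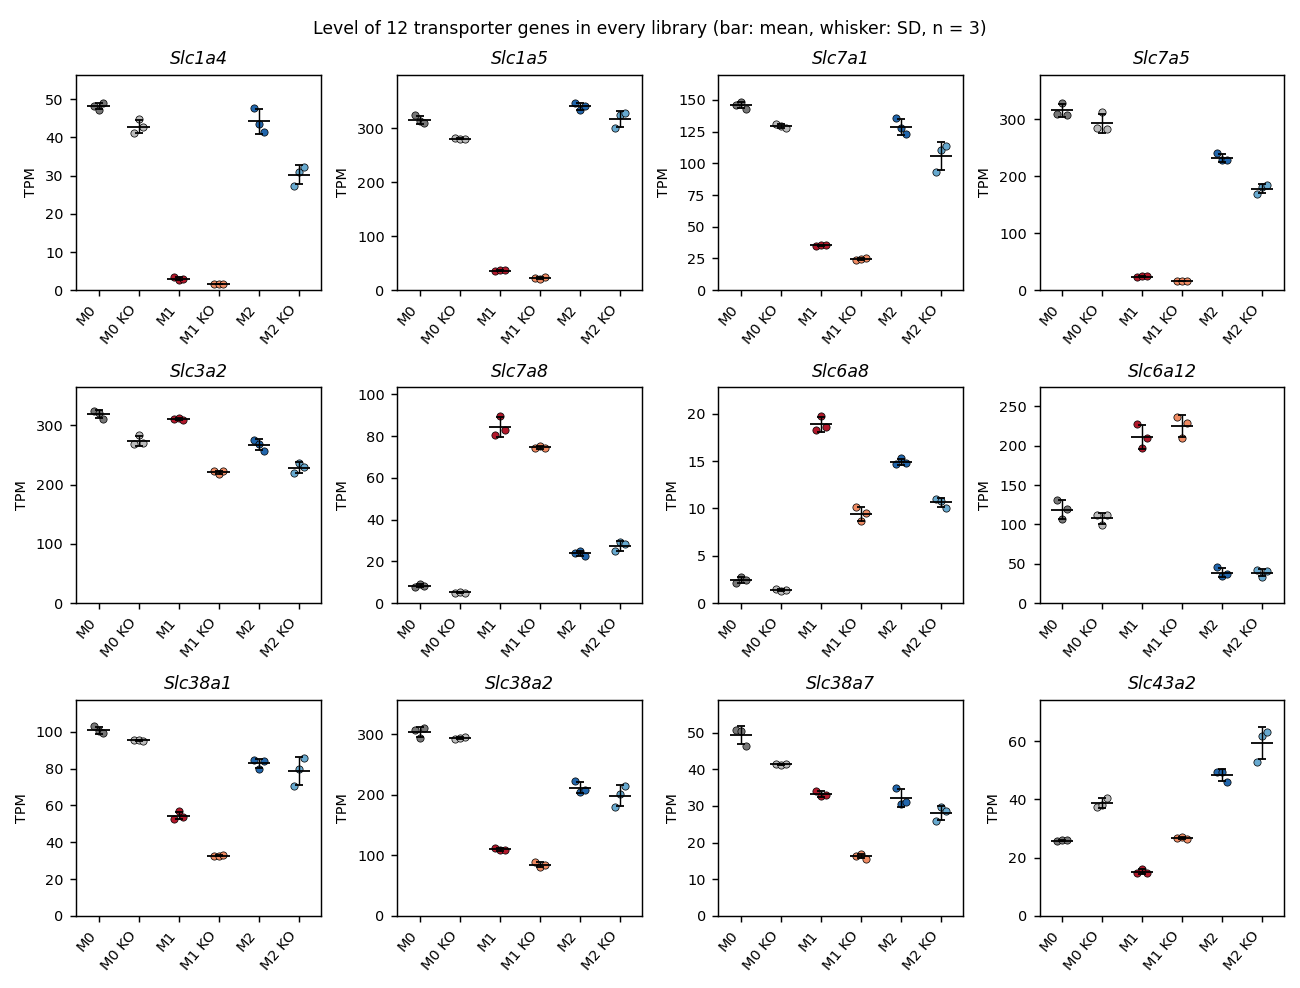
TPM of 12 tested members in every library, by group (M0, M1 and M2; KO marks the knockout), with the mean and SD of each group (n = 3); every axis starts at 0. Slc1a4, Slc1a5, Slc7a1 and Slc7a5 drop together under M1, Slc7a8 and Slc6a8 rise under both stimulations, Slc6a12 rises under M1 and falls under M2, and Slc43a2 is higher in knockout cells in all 3 conditions.

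More members were lower than higher in knockout cells, and Slc43a2 was higher throughout. Without stimulation 9 of 26 tested members were called, 1 higher and 8 lower, a share of 34.6% beside 19.2% of all tested genes (8.86% higher and 10.3% lower). The median difference of the tested members was -0.09 beside 0.00 over all genes. Slc43a2 was the one that was higher, at 37.4, 38.2 and 40.5 TPM in knockout libraries against 25.5, 25.9 and 26.1 in control libraries. The 2 groups lay well apart, a 1.5-fold difference (log2 change 0.56 ± 0.0577, limma adjusted p = 4.76e-07). The summed macrophage markers were at 4917 to 5006 TPM in knockout and 6049 to 6192 in control libraries. Lyz2 weighed most in this, at 2482 ± 14.4 TPM in knockout and 3631 ± 90.4 in control cells. Cd68, Adgre1, Itgam, Ptprc, Spi1 and Fcgr1 also had lower means in knockout cells. Csf1r (571 ± 15.0 against 443 ± 9.44 TPM) and Cd14 had higher ones. The part of these markers in the differences was not tested.

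Among the members that were lower, Slc7a4 was at 1.24, 0.89 and 0.91 TPM against 2.66, 2.05 and 2.74 (log2 change -0.79 ± 0.106, limma adjusted p = 1.64e-05). Slc7a8 was at 4.93, 5.27 and 5.02 TPM against 7.62, 9.11 and 8.02, a 1.63-fold difference with no overlap (log2 change -0.60 ± 0.0647, limma adjusted p = 8.82e-07). Slc6a8 was at 1.45, 1.27 and 1.40 TPM against 2.13, 2.76 and 2.44 (log2 change -0.53 ± 0.0722, limma adjusted p = 1.74e-05). All 3 were low genes without stimulation, under 10 TPM in both genotypes. Slc7a7 was at 19.2 ± 1.03 TPM against 23.7 ± 1.05 (log2 change -0.29 ± 0.0481, limma adjusted p = 2.04e-04), and the lysosomal glutamine exporter Slc38a7 at 41.3 ± 0.0586 against 49.3 ± 2.42 (log2 change -0.25 ± 0.0557, limma adjusted p = 0.00337). The heavy chain Slc3a2 was at 268, 283 and 269.5 TPM, below all control libraries by a smaller step (log2 change -0.22 ± 0.0333, limma adjusted p = 6.99e-05). Slc1a5 (-0.17) and Slc7a1 (-0.17) were also called lower. The Slc1a5 call was lost without control M0 replicate 1 (adjusted p = 0.0501), and the Slc7a1 call without any one of the 6 libraries compared (adjusted p up to 0.0933).

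Under M1 the knockout differed in 19 of 26 tested members, 3 higher and 16 lower, a share of 73.1% beside 50.3% of all tested genes (16.9% higher and 33.4% lower). The median difference was -0.33 beside -0.06 over all genes. Slc38a7 differed most on the log2(TPM + 1) scale: it was at 16.4, 16.8 and 15.6 TPM in knockout libraries against 34.2, 32.7 and 33.1 in control libraries. Every knockout library was near 16 TPM and every control library above 32, a 2.05-fold difference (log2 change -0.99 ± 0.0557, limma adjusted p = 2.67e-11). Slc6a8 was at 10.1, 8.65 and 9.54 TPM against 18.3, 19.8 and 18.6, 2-fold lower (log2 change -0.93 ± 0.0722, limma adjusted p = 2.66e-09). Slc38a1 was at 32.7, 32.4 and 33.0 TPM against 52.9, 56.9 and 53.9 (log2 change -0.72 ± 0.0509, limma adjusted p = 7.24e-10), with no library of either group near the other.

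The exchangers that M1 had already lowered were lower again in knockout cells. Slc1a5 was at 21.9, 20.1 and 23.5 TPM against 35.5, 36.6 and 37.2 in control cells, 1.67-fold lower (log2 change -0.72 ± 0.0444, limma adjusted p = 1.08e-10). Slc43a3 was at 2.42, 3.34 and 2.59 TPM against 3.99, 5.25 and 5.11 (log2 change -0.61 ± 0.094, limma adjusted p = 2.22e-05), and Slc7a5 at 16.1 ± 0.55 against 24.0 ± 1.45 (log2 change -0.55 ± 0.0484, limma adjusted p = 1.56e-08). Neither overlapped. The other members called lower were Slc1a4 (-0.56), Slc7a1 (-0.52), Slc3a2 (-0.49), Slc38a6 (-0.48), Slc6a9 (-0.44), Slc38a2 (-0.38), Slc7a4 (-0.36, but 3.91-fold by mean TPM), Slc7a7 (-0.31), Slc36a1 (-0.23) and Slc7a8 (-0.17). The Slc7a8 call was lost with TMM or median-ratio factors, without the filter, and without control M1 replicate 2 or any 1 knockout M1 library (adjusted p up to 0.152).

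Slc43a2 was again higher, at 26.7, 27.2 and 26.3 TPM against 14.8, 16.2 and 14.6, 1.76-fold (log2 change 0.78 ± 0.0577, limma adjusted p = 1.48e-09). Slc6a4 was higher, at 8.59, 7.70 and 8.20 TPM against 4.98, 4.85 and 5.45 (log2 change 0.59 ± 0.109, limma adjusted p = 1.54e-04), a call lost at a pseudocount of 0.1 TPM (adjusted p = 0.146). Slc6a6 was higher by a small step (log2 change 0.18 ± 0.0424, limma adjusted p = 0.00153), and neither of these overlapped between genotypes. The summed neutrophil markers, of which S100a8 alone passed the filter, were at 10.1 to 12.6 TPM in knockout and 52.9 to 62.0 in control M1 libraries, and the summed macrophage markers at 5452 to 5624 against 6106 to 6257. Of the macrophage markers, Cd14, Csf1r and Mertk had higher means in knockout M1 libraries and the others lower ones. The part of these markers in the differences was not tested.

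**Figure D5:**
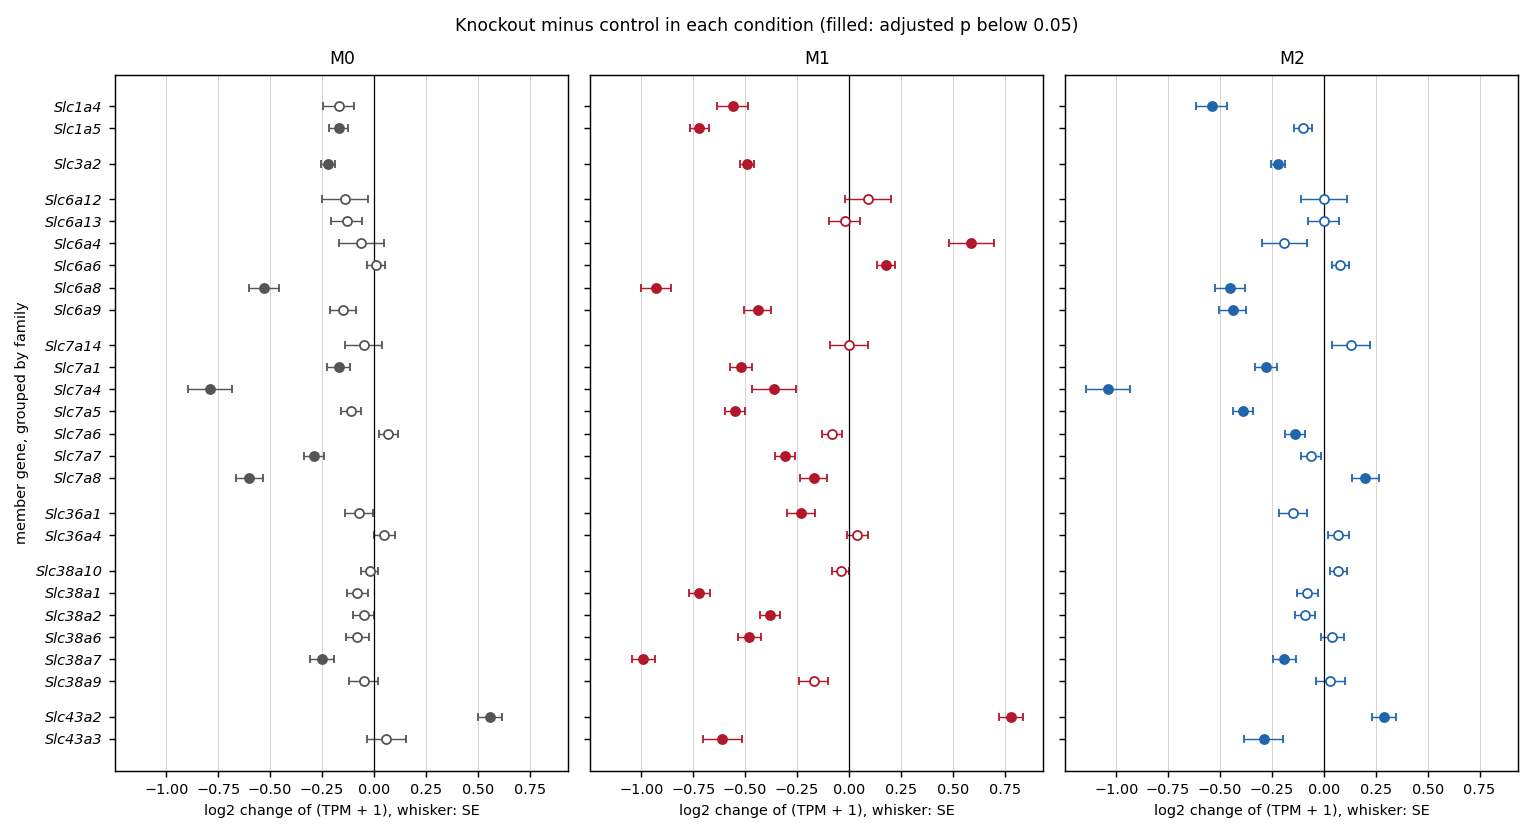
Difference between knockout and control cells for the 26 tested members under M0, M1 and M2, in log2(TPM + 1), grouped by family, with the same axis in the 3 panels. Points are the fitted difference, whiskers its standard error, and filled points passed an adjusted p below 0.05; 9, 19 and 12 members did so, and Slc43a2 is right of 0 in all 3 panels.

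Under M2 the knockout differed in 12 of 26 tested members, 2 higher and 10 lower (46.2% beside 30.9% of all tested genes, of which 12.7% higher and 18.3% lower; 3 and 8 with TMM factors, 3 and 10 with median-ratio factors). Without the knockout library that stood apart there were 10, and without control M2 replicate 1 there were 8. The summed macrophage markers were at 4037 to 4235 TPM in knockout and 4770 to 4928 in control M2 libraries, and the summed B cell markers at 19.6 to 21.2 and 13.1 to 15.1. Lyz2 weighed most in the macrophage sum, at 1034 ± 57.4 against 1981 ± 11.9 TPM. Adgre1 and Ptprc also had lower means in knockout cells, and the other macrophage markers had higher ones. The part of these markers was not tested. Slc7a4 differed most, at 1.26, 1.62 and 1.03 TPM against 4, 3.38 and 3.75, 2.85-fold lower with no overlap (log2 change -1.04 ± 0.106, limma adjusted p = 3.73e-07). Slc1a4 was at 27.4, 31.1 and 32.2 TPM against 47.8, 43.5 and 41.5 (log2 change -0.54 ± 0.0739, limma adjusted p = 1.51e-05). Slc7a5 was at 169, 181 and 184 TPM against 240.5, 228 and 229 (log2 change -0.39 ± 0.0484, limma adjusted p = 4.68e-06). Neither overlapped between genotypes. Slc6a8 was at 10.6 ± 0.506 TPM against 14.9 ± 0.316 (log2 change -0.45 ± 0.0722, limma adjusted p = 7.73e-05), and Slc6a9 at 22.8 ± 1.70 against 31.3 ± 3.31 (log2 change -0.44 ± 0.064, limma adjusted p = 3.21e-05).

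Slc43a3 (-0.29), Slc7a1 (-0.28), Slc3a2 (-0.22), Slc38a7 (-0.19) and Slc7a6 (-0.14) were also called lower under M2. The Slc43a3 call was lost without control M2 replicate 1 or knockout M2 replicate 1 or 2, with TMM factors, at a pseudocount of 0.1 TPM and without the filter (adjusted p up to 0.123). The Slc38a7 call was lost without replicate 1 of either M2 group (adjusted p up to 0.0939), and the Slc7a6 call without control M2 replicate 1 or 3 or knockout M2 replicate 1 or 2, or with TMM factors (adjusted p up to 0.0845). Slc43a2 was higher, at 52.9, 61.7 and 63.1 TPM against 49.5, 49.5 and 45.9 (log2 change 0.29 ± 0.0577, limma adjusted p = 8.42e-04). Slc7a8 was called higher (log2 change 0.20 ± 0.0647, limma adjusted p = 0.0271) although its libraries overlapped, at 24.9, 29.2 and 28.1 TPM against 23.7, 25.1 and 22.5. That call was lost without control M2 replicate 1 or 3 or knockout M2 replicate 2 or 3 (adjusted p up to 0.136).

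Across the 3 conditions 5 members were called lower each time: the heavy chain Slc3a2, the arginine carrier Slc7a1, Slc7a4, the creatine carrier Slc6a8 and the glutamine exporter Slc38a7. Slc43a2 alone was called higher each time. The share of all tested genes called the same way in all 3 was not counted, so these counts have no background. The Slc7a1 call without stimulation was lost without any single library compared, without the filter and without the trend. The Slc38a7 call under M2 was lost without replicate 1 of either M2 group and when only the groups compared were fitted. Slc6a12, Slc6a13, Slc7a14, Slc36a4, Slc38a9 and Slc38a10 were called in none of the 3. The summed level of SLC6 in M2 libraries was 297 ± 16.3 TPM in knockout and 299 ± 16.7 in control cells, and that of SLC43 without stimulation was 70.8 ± 2.28 against 56.6 ± 2.93.

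The response to M1 itself differed between genotypes in 17 of 26 tested members, in which the knockout response minus the control response was higher in 5 and lower in 12 (65.4% beside 36% of all tested genes, of which 12.1% higher and 23.9% lower). On the deposited scale Slc38a7 fell further in knockout cells, with log2 changes of -1.29 against -0.55. The difference was -0.74 ± 0.0788 (limma adjusted p = 5.83e-07). With TMM factors the control change of Slc38a7 was -0.01 and not called, so a fall in control cells is not settled. Slc43a3, the purine base carrier, had log2 changes of -3.13 and -2.46, a difference of -0.67 ± 0.133 (limma adjusted p = 5.93e-04). The surface carriers Slc38a1 and Slc1a5 and the light chain Slc7a5 also fell further, with differences of -0.64 ± 0.072, -0.55 ± 0.0627 and -0.44 ± 0.0684 (limma adjusted p = 1.19e-06, 1.47e-06 and 4.96e-05). Slc6a8 rose less in knockout cells, with a difference of -0.40 (limma adjusted p = 0.00477), a call lost at a pseudocount of 0.1 TPM (-0.21, adjusted p = 0.207). On the other side, Slc6a4 rose further in knockout cells, with a difference of 0.64 ± 0.154 (limma adjusted p = 0.0028; 0.178 at a pseudocount of 0.1 TPM). Slc7a8 also rose further, by 3.64 against 3.21, a difference of 0.43 ± 0.0915 (limma adjusted p = 0.00109). Slc7a4 (0.43), Slc43a2 (0.21) and Slc6a6 (0.17) were called with limma adjusted p between 0.0297 and 0.0486. Each call was lost when single libraries were left out, and that of Slc7a4 with TMM and median-ratio factors too. At a pseudocount of 0.1 TPM the Slc7a4 difference was -0.10, so its direction is not settled.

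The response to M2 differed in 7 of 26 tested members, 2 higher and 5 lower (26.9% beside 14.1% of all tested genes, of which 7.06% higher and 7.05% lower). That count fell to 3 without control M0 replicate 2 or control M2 replicate 1, and to 4 without control M0 replicate 1, knockout M0 replicate 2 or 3, or knockout M2 replicate 2; without replicate 1 of the knockout M2 group it was 5. Slc7a8 carried the largest difference: it rose by 2.22 on the log2 scale in knockout cells and by 1.42 in control cells, a difference of 0.80 ± 0.0915 (limma adjusted p = 4.80e-06). Its level under M2 was similar in both genotypes and its unstimulated level lower in knockout cells. Slc7a5 fell further in knockout cells, with a difference of -0.28 ± 0.0684 (limma adjusted p = 0.00912). The calls of Slc1a4 (-0.37), Slc6a9 (-0.28), Slc43a2 (-0.28), Slc7a6 (-0.21) and Slc7a7 (0.22) were each lost when single libraries were left out, with adjusted p up to 0.0679, 0.122, 0.075, 0.103 and 0.0928.

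Genes that sense amino acids were followed in 3 lists. Of 33 tested genes of mTORC1 amino acid sensing, 9 were higher and 21 lower under M1 in control cells (90.9% called beside 89.1% of all tested genes), with a median change of -0.36 beside -0.38 over all genes. With TMM factors the split was 18 and 11, so the direction of this list rests on the scaling. The leucine-sensor relative Sesn1 fell from 32.2 ± 1.59 to 4.41 ± 0.311 TPM (log2 change -2.62 ± 0.0714, limma adjusted p = 3.58e-18). The Rag GTPase gene Rragb fell by 2.41 on the log2 scale (limma adjusted p = 1.33e-14). Gatsl2 is the older symbol of Castor2, a relative of the arginine-sensor gene Castor1. Gatsl2 rose from 4.40 ± 0.0153 to 20.7 ± 1.13 TPM (log2 change 2.01 ± 0.0771, limma adjusted p = 1.14e-15).

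Under M2 in control cells 5 genes of this list were higher and 14 lower (57.6% called beside 65.4%; 9 and 11 with TMM factors), with a median of -0.12 beside -0.05. Gatsl3, the older symbol of the arginine-sensor gene Castor1, was at 0.74 on the log2 scale, the leucine sensor Sesn2 at -0.65 and the KICSTOR gene Kptn at -0.65. In the knockout 3 were higher and 3 lower without stimulation (18.2% called beside 19.2%), with a median of 0.03 beside 0.00, led by Sesn1 (0.36) and the Ragulator genes Lamtor2 (0.19) and Lamtor1 (0.13). Under M1 the knockout counts were 5 higher and 16 lower (63.6% called beside 50.3%), with a median of -0.15 beside -0.06, and 9 and 8 with TMM factors. The mTORC1 regulators Fnip2 and Flcn, which act as a pair, were lower in the knockout under M1, at -0.71 and -0.67 on the log2 scale (limma adjusted p = 1.09e-07 and 1.20e-08), followed by Rragb at -0.37. Under M2 the knockout counts were 4 higher and 2 lower (18.2% called beside 30.9%; 6 and 1 with TMM factors), with a median of -0.01 beside -0.03, led by Fnip2 (0.36), Sesn2 (-0.32) and Lamtor2 (0.20).

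Of the 14 genes of the GCN2 and ATF4 amino acid response, 6 were higher and 8 lower under M1 in control cells (100% called beside 89.1% of all tested genes; 7 and 6 with TMM factors), with a median change of -0.37 beside -0.38 over all genes. Atf3, a stress-induced transcription factor gene, rose from 50.7 ± 0.828 to 1590 ± 37.4 TPM (log2 change 4.94 ± 0.0431, limma adjusted p = 1.48e-25), and Ppp1r15a, which restores translation after stress, rose by 3.11 (limma adjusted p = 1.18e-22). Chac1, a glutathione-degrading target of ATF4, fell from 76.1 ± 2.96 to 13.5 ± 1.09 TPM (log2 change -2.41 ± 0.0591, limma adjusted p = 5.96e-19). Under M2 in control cells 6 were higher and 7 lower (92.9% called beside 65.4%), with a median of -0.04 beside -0.05, led by Atf3 (1.38), Cebpb (0.86) and Ddit3 (-0.70). In the knockout 0 were higher and 7 lower without stimulation (50% called beside 19.2%), with a median of -0.10 beside 0.00 over all genes and the same counts with TMM factors. Ddit3, Cebpb and Trib3 led them, at -0.90, -0.70 and -0.65 on the log2 scale (limma adjusted p = 2.14e-10, 0.0282 and 3.06e-09). Under M1 2 were higher and 8 lower in the knockout (71.4% called beside 50.3%), with a median of -0.27 beside -0.06, led by the asparagine synthetase gene Asns at 104 ± 2.50 against 198 ± 7.94 TPM (log2 change -0.92 ± 0.0412, limma adjusted p = 7.30e-13), with Impact at -0.77 and Chac1 at -0.50 on the log2 scale. Under M2 2 were higher and 5 lower in the knockout (50% called beside 30.9%), with a median of -0.05 beside -0.03, led by Ddit3 (-0.75), Atf3 (0.60) and Trib3 (-0.51).

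Of 14 other tested carriers of amino acids and peptides, 5 were higher and 8 lower under M1 in control cells (92.9% called beside 89.1% of all tested genes; 8 and 4 with TMM factors), with a median change of -0.22 beside -0.38. The lysosomal peptide and histidine carrier Slc15a3 rose from 22.7 ± 1.10 to 1532 ± 21.2 TPM (log2 change 6.02 ± 0.0546, limma adjusted p = 3.94e-25), a level above that of every member of the 7 families. The mitochondrial ornithine carrier Slc25a15 fell from 14.0 ± 1.74 to 1.12 ± 0.202 TPM (log2 change -2.83 ± 0.0838, limma adjusted p = 1.45e-17), and the aspartate and glutamate carrier Slc25a13 by 1.93 on the log2 scale (limma adjusted p = 7.70e-19). Under M2 6 were higher and 6 lower (85.7% called beside 65.4%), with a median of -0.02 beside -0.05, led by Slc15a3 (1.56), the aromatic amino acid carrier Slc16a10 (-1.13) and Pqlc2 (1.10), the older symbol of the lysosomal cationic amino acid carrier Slc66a1. In the knockout the counts were 0 and 4 without stimulation (1 and 4 with TMM factors), 1 and 4 under M1 (3 and 3), and 3 and 2 under M2 (4 and 1), with medians of -0.03, -0.08 and -0.05 beside 0.00, -0.06 and -0.03 over all genes. The shares called were 28.6%, 35.7% and 35.7% beside 19.2%, 50.3% and 30.9% of all tested genes. They were led without stimulation by Pqlc2 (-0.57), Slc25a12 (-0.27) and Slc16a10 (-0.22), under M1 by Pqlc2 (-0.70), Slc15a4 (0.39) and Slc25a38 (-0.21), and under M2 by Slc15a3 (0.52), Slc16a10 (-0.42) and Slc17a7 (-0.40). These counts describe the lists and were not tested against other genes.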

How the data were processed

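RNA from 18 libraries (6 groups of 3) was sequenced from poly(A) RNA with an NEBNext Ultra II RNA kit, per the labels' protocols. The authors deposited 1 table of TPM values with 2 decimals. The submitters' processing notes name Trim Galore and the mm10 build, while no aligner, quantifier or annotation was given in the sources used here. TPM sums to the same total in every library, so sequencing depth is unknown and no counting interval is given.

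From the deposited TPM, log2(TPM + 1) was fitted with limma 3.58.1 in R 4.3.3 (intensity-dependent trend, robust, 1 mean per group, all 18 libraries). Genes that reached 1 TPM in 3 or more libraries entered, p-values were two-sided and adjusted by Benjamini-Hochberg over all 11548 of them, and 10 comparisons were made. In data simulated for M1 against M0 in control cells over 11548 genes, 100 of 100 changes of 1 and 99 of 100 changes of 0.5 on the log2 scale were called, with 9 false calls. The changed genes were drawn only from the higher ones in unstimulated control cells, and all other genes were left unchanged. In the data 89.1% of tested genes were called under M1, so these rates cover neither low genes nor such a broad change. Alternatives were TMM or median-ratio factors computed on TPM, a pseudocount of 0.1 TPM, no filter or 5 TPM, no trend, only the groups compared, a replicate block and each library left out. Of 153 pairs of libraries, 0 held identical values. The families, lists and tests were chosen with earlier results of these data known. Named with full statistics in each comparison were up to 5 called members with the largest rises and up to 5 with the largest falls, and from each list, for stimulation in control cells and the knockout comparisons, the 3 called genes with the largest change. Motifs were searched in RefSeq windows of 260 bases. Not every gene below the filter is reported by name here.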

Additional observations from a re-analysis of the deposited data

Results flagged for a closer look

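The response to M1 differed between knockout and control cells in 17 members by limma's test of the difference itself (knockout response minus control response, log2 scale). It was lower in Slc38a7 (-0.74), Slc43a3 (-0.67), Slc38a1 (-0.64), Slc1a5 (-0.55), Slc7a5 (-0.44), Slc38a6 (-0.40), Slc6a8 (-0.40), Slc1a4 (-0.39), Slc7a1 (-0.35), Slc38a2 (-0.33), Slc6a9 (-0.29) and Slc3a2 (-0.27). It was higher in Slc6a4 (0.64), Slc7a4 (0.43), Slc7a8 (0.43), Slc43a2 (0.21) and Slc6a6 (0.17). The Slc7a4 difference turned to -0.10 at a pseudocount of 0.1 TPM, so its direction is not settled.

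The response to M2 differed in 7 members by the same test. It was higher in Slc7a8 (0.80) and Slc7a7 (0.22) and lower in Slc1a4 (-0.37), Slc6a9 (-0.28), Slc7a5 (-0.28), Slc43a2 (-0.28) and Slc7a6 (-0.21). Slc43a2 was thus called upward under M1 and downward under M2. Both calls were lost when single libraries were left out (limma adjusted p up to 0.111 and 0.075), so this contrast is not settled.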

How the results depend on the processing

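Of 4565 values of the 176 called member results under the alternatives, 4415 stayed on the same side of the threshold with the same direction, 136 were no longer called and 14 changed direction. With TMM and median-ratio factors the M1 change turned to 0.28 and 0.14 for Slc38a10 in control cells, and in knockout cells to 0.33 and 0.18 for Slc38a10, 0.31 and 0.16 for Slc3a2, and 0.19 and 0.06 for Slc38a6. Slc43a2 in knockout cells turned to 0.08 with TMM factors. Between M1 and M2, Slc7a7 turned to 0.26 and 0.17 and Slc36a4 to 0.23 and 0.15. The genotype difference of Slc7a4 in the M1 response was -0.10 at a pseudocount of 0.1 TPM. The summed ratio of SLC3 under M1 to M0 moved from 0.975 to 1.43 and 1.29, and that of SLC6 in knockout to control cells under M2 from 0.994 to 1.02 and 1.01. Leaving out 1 library changed the direction of none of the 176, and the count called in the genotype difference under M2 (7) ranged from 3 to 7; the cause was not tested. The count called in the genotype difference under M1 (17) ranged from 14 to 18. The knockout counts ranged from 7 to 10 (without stimulation), 18 to 20 (under M1) and 8 to 13 (under M2). Those for M2 against M0 ranged from 18 to 21 in control and 21 to 23 in knockout cells. The counts for M1 against M0 and against M2 did not change.

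Over all tested genes, same-numbered libraries did not deviate together (correlations -0.16 to 0.15 with a median of 0.02, other numbers with a median of -0.01). Correlations over all genes cannot show whether the numbers mark a pairing or batch that acts on some genes, and the labels do not say. With the replicate number as a block, 175 of the 176 calls stood, and Slc6a9 in the genotype difference under M2 did not (-0.28, limma adjusted p = 0.0577). The unknown depth limits what can be said of members below 1 TPM.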

Other observations

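Slc6a12 was lowest in replicate 2 of all 6 groups, and Slc7a8 was highest in replicate 2 of all 6. Among all 11548 tested genes, 58 (0.502%) were lowest in the same-numbered replicate of every group and 39 (0.338%) highest. The labels give no batch or day for the replicate numbers.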
